A study of Mus musculus with 12 samples.

Results

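Messenger RNA of 10 genes of the immune checkpoint system was followed through a mouse T-cell leukaemia and normal T-lineage cells. The genes are Pdcd1 (PD-1), Ctla4, Lag3, Havcr2 (TIM-3), Tigit, Btla, Vsir (VISTA), Cd274 (PD-L1), Icos and Tox, taken by symbol from a table of 54351 genes. All 10 were detected and passed the filter on low counts, among 20897 genes that did. Inhibitory checkpoint receptors sit on the T-cell surface and dampen signalling from the T-cell receptor when they meet their ligands on neighbouring cells. Most appear after activation and fade again, and their lasting presence together with the nuclear factor TOX marks exhausted T cells in chronic infection and in tumours. Within the thymus, PD-1 and TOX also belong to normal development, since signals through the newly made receptor switch them on during selection.

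The 4 groups of 3 libraries were LN3 thymus, LN3 spleen, wild-type (WT) thymocytes and WT CD8 cells. LN3 thymus and LN3 spleen were leukaemia cells from organs of visibly ill transgenic mice (labelled LN3 tg, C57BL/6), which were dissociated without sorting, so normal cells of the organ may be included. As background, LN3 mice are known for transgenes of LMO2 and of a NUP98-HOXD13 fusion, whose promoters the labels do not name. WT thymocytes were dissociated thymuses, and WT CD8 cells were spleen cells enriched by negative selection to a stated purity of 85 to 95%, all of tumour-free C57BL/6 mice. The spleen comparison therefore sets unsorted leukaemic spleen against an enriched T-cell subset, and any genotype difference there cannot be told apart from the enrichment.

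Libraries held 12694571 to 42483898 counts. The WT thymocyte 3 library stood apart from its group, and together with LN3 thymus 2 and LN3 spleen 1 its counts rose most with the GC content of transcripts. T-cell markers were present throughout, with 9 of them summing to 4230 to 7830 CPM in LN3 thymus, 5080 to 5660 CPM in LN3 spleen, 4740 to 9690 CPM in WT thymocytes and 2320 to 3560 CPM in WT CD8 cells. CPM, the usual abundance unit of count data, are here the counts of each library scaled to a common total after TMM correction. Differences are log2 differences from edgeR's quasi-likelihood test over all 20897 genes, called where the Benjamini-Hochberg adjusted p lay below 0.05. Whether all replicates were separate animals is not stated in the labels, and the p-values therefore reflect the spread of these libraries alone, some of which may be technical.

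In the GENCODE annotation of GRCm38, the genes lie on 7 chromosomes. Ctla4 and Icos are near each other, Ctla4 (ENSMUSG00000026011.13) at chr1:60887000-60915832 on the plus strand and Icos (ENSMUSG00000026009.14) at chr1:60977927-61000320 on the plus strand. The same chromosome holds Pdcd1 (ENSMUSG00000026285.7) at chr1:94038305-94052553 on the minus strand. Chromosome 16 holds Tigit (ENSMUSG00000071552.5) at chr16:43648867-43664146 on the minus strand and Btla (ENSMUSG00000052013.15) at chr16:45224315-45257670 on the plus strand. The other receptors are Lag3 (ENSMUSG00000030124.2) at chr6:124904361-124911705 on the minus strand, Havcr2 (ENSMUSG00000020399.14) at chr11:46454935-46481255 on the plus strand and Vsir (ENSMUSG00000020101.14) at chr10:60346851-60372684 on the plus strand, inside the span of Cdh23 without shared exons. The ligand is Cd274 (ENSMUSG00000016496.7) at chr19:29367455-29388095 on the plus strand and the transcription factor Tox (ENSMUSG00000041272.11) at chr4:6686353-6991557 on the minus strand.

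Sequence from just upstream of the start site is shown for Pdcd1, Ctla4, Vsir and Cd274, the receptor and ligand genes whose RNA differed between leukaemic and WT cells of the same organ. RefSeq's table on GRCm38.p6 matched 7 of the 10 genes by symbol, and Lag3, Icos and Tox were the others. Each line gives the 250 bases before the RefSeq start, 5′ to 3′ on the gene's own strand. Capitals mark the NFAT core letters GGAAA or their reverse complement, NFAT being a factor activated by calcium signals from the T-cell receptor. The Pdcd1 stretch is chr1:94052554-94052803 on the minus strand, and the Ctla4 stretch is chr1:60908775-60909024 on the plus strand, inside the annotated gene span. The Vsir stretch is chr10:60346601-60346850 and the Cd274 stretch is chr19:29367188-29367437, both on the plus strand.
Pdcd1: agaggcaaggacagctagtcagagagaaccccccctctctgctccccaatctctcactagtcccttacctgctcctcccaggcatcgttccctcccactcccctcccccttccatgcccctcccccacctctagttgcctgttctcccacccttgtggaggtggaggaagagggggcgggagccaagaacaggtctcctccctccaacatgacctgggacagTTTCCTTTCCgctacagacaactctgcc
Ctla4: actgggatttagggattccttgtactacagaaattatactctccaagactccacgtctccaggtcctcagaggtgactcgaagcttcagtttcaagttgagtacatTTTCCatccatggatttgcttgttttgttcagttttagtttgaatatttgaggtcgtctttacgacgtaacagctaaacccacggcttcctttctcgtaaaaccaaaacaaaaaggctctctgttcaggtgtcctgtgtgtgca
Vsir: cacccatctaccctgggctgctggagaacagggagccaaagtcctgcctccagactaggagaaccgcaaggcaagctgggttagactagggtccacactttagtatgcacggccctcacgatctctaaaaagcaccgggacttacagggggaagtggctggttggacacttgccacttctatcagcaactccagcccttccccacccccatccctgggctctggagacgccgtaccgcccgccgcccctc
Cd274: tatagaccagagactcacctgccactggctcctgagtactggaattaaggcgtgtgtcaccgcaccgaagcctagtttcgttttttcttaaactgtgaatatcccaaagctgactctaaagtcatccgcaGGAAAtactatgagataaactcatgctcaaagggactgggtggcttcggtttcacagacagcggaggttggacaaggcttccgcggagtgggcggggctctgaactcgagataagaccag

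GGAAA was found on either strand in 4 of the 7 stretches (Pdcd1, Ctla4, Tigit and Cd274), and in 55.6% of 32851 mouse promoter stretches of the same length. In Pdcd1 its pair of matches lay side by side, between 28 and 19 bases upstream of the start. TGTGGT, a letter core bound by RUNX factors, was in 3 of the 7 (Havcr2, Tigit and Btla) against 14% of all promoters, and TGANTCA, the AP-1 core, was in 1 (Havcr2) against 6.75%. TGGGAA (RBPJ core), CACGTG (an E-box) and CTTTGAT (TCF/LEF core) were in none of the 7, against 21.6%, 6.02% and 3.21% of all promoters. The letters of the NFAT and RBPJ cores can overlap. These matches describe letters in the windows searched and say nothing of which factor was bound.

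**Figure D1:**
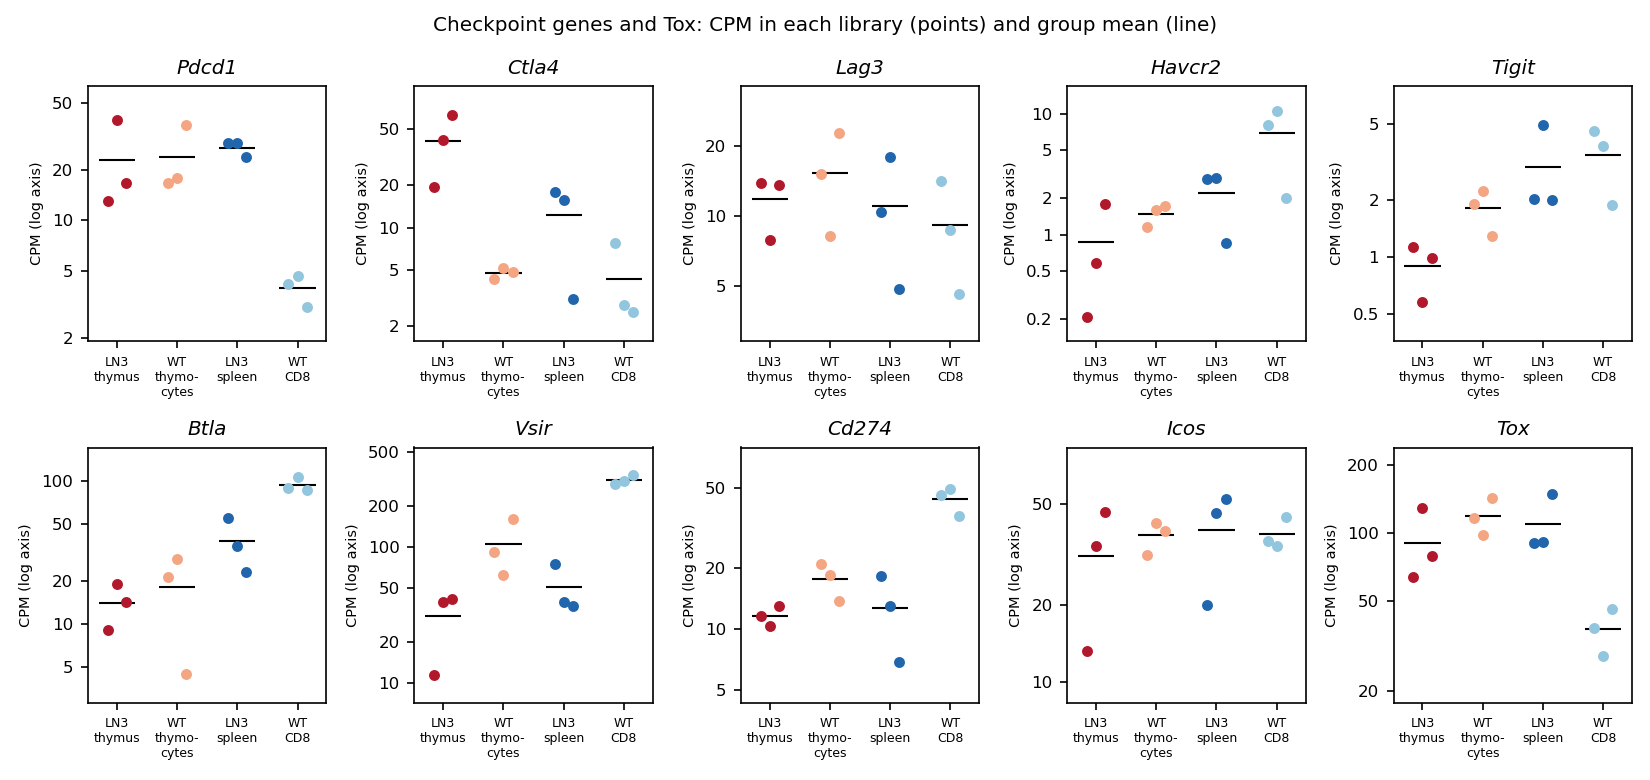
Levels of the 10 genes in each library. Each panel plots CPM on a log axis, with 1 point per library and a line at the group mean for LN3 thymus, WT thymocytes, LN3 spleen and WT CD8 cells; Ctla4 stands highest in LN3 thymus, and Pdcd1 and Tox stand lowest in WT CD8 cells.

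The thymus comparison asked how leukaemia cells differed from normal thymocytes. Ctla4 rose 8.56-fold in LN3 thymus and Vsir fell 3.4-fold, and the other 8 genes did not pass the test. The 2 of 10 genes called compare with 11.3% of all genes tested. The groups did not overlap for 4 of the 10 genes, against 27.2% of all genes.

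Ctla4 encodes an inhibitory receptor that competes with CD28 for its ligands CD80 and CD86. Its level was 19.2, 41.3 and 62.4 CPM in LN3 thymus libraries 1 to 3, against 4.32, 5.21 and 4.82 CPM in WT thymocyte libraries 1 to 3. Every LN3 thymus library lay above every WT thymocyte library, and the LN3 libraries differed among themselves by 3.25-fold. The log2 difference was 3.10 ± 0.658 (SE), with an adjusted p of 0.00978. Without the 3 libraries with the strongest GC trend the difference was 3.14 and the adjusted p 0.0881.

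Vsir encodes VISTA, which acts both as a receptor on T cells and as a ligand on other cells and is known for keeping naive T cells quiescent. It measured 11.4, 39.4 and 41.8 CPM in LN3 thymus, against 92.6, 61.9 and 160.2 CPM in WT thymocytes. All LN3 thymus libraries lay below all WT thymocyte libraries, with LN3 thymus 1 lowest by far. The log2 difference was −1.77 ± 0.475 (SE), adjusted p = 0.0308. Its call was lost without LN3 thymus 1 (−1.34, adjusted p = 0.069), LN3 thymus 2 (−1.97, 0.0588), WT thymocyte 1 (−1.88, 0.0666) or WT thymocyte 3 (−1.31, 0.103). It was also lost with the compared groups alone (0.0765) and once the 3 libraries of strongest GC trend were left out (−1.49, 0.131), and in all it held in 15 of 22 alternatives.

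The share of a single transcript row, CT010467.1, differed between thymus libraries. It took 0.44, 10.5 and 4.61% of counts in LN3 thymus, against 1.15, 0.777 and 5.11% in WT thymocytes. Among the libraries under 3% the log2 difference was 2.00 for Ctla4 and −2.78 for Vsir, and among the others it was 3.47 for Ctla4 and −1.94 for Vsir. On each side of this split 1 group has a single library, so only the differences are given, and the part of CT010467.1 in the results was not tested.

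Pdcd1 encodes PD-1, the receptor for PD-L1 and PD-L2. In LN3 thymus it stood at 13.0, 39.4 and 16.7 CPM, against 16.8, 17.8 and 37.0 CPM in WT thymocytes. The groups overlapped throughout, each with 1 high library, and the log2 difference was −0.05 with a 95% interval of −0.97 to 0.86. Tox, an HMG-box factor needed for CD4 lineage development in the thymus, measured 63.9, 128.6 and 79.0 CPM in LN3 thymus, against 116, 97.8 and 142 CPM in WT thymocytes. These groups overlapped as well, and the interval of the Tox difference ran from −1.07 to 0.28.

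Cd274 encodes PD-L1, the ligand that engages PD-1. It measured 11.6, 10.3 and 12.9 CPM in LN3 thymus, against 21.1, 18.5 and 13.8 CPM in WT thymocytes. Although these groups did not overlap, the difference of −0.61 did not pass the test (adjusted p = 0.284). Tigit, a receptor for the poliovirus receptor CD155, was likewise lower in each LN3 thymus library, at 0.58 to 1.13 CPM against 1.29 to 2.21 CPM in WT thymocytes, and did not pass either (log2 difference −0.98, adjusted p = 0.286).

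Lag3, Havcr2, Btla and Icos overlapped between LN3 thymus and WT thymocytes. Lag3 encodes a receptor for MHC class II, and its interval was −1.54 to 0.79. Icos, the co-stimulatory receptor of the family, had an interval of −1.18 to 0.65, and Btla, the receptor for HVEM, one of −1.49 to 0.76. Havcr2 was near the detection limit in LN3 thymus, with 5 counts in library 1 (0.21 CPM, 95% Poisson interval 0.068 to 0.49, which covers counting error only) and 7 counts in library 2. Over all 10 genes the median log2 difference was −0.38, and over all genes tested it was −0.04.

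The spleen comparison set LN3 spleen against WT CD8 cells. Pdcd1 rose 6.83-fold and Tox 2.93-fold in LN3 spleen, while Vsir fell 6.22-fold and Cd274 fell 3.47-fold. These 4 of 10 genes compare with 30.9% of all genes tested, and the 5 of 10 whose groups did not overlap compare with 58.2%. Each of the 4 calls held in all 22 alternatives tried, none of which split the libraries by CT010467.1. That row took 9.71, 4.88 and 4.83% of counts in LN3 spleen, against 1.45, 0.827 and 0.581% in WT CD8 cells. The groups did not overlap in it, so its part cannot be told apart from the group difference and was not tested. In these bulk samples, fewer cells of a type and less RNA per cell cannot be told apart.

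Pdcd1 was at 28.7, 29.0 and 23.7 CPM in LN3 spleen, against 4.21, 4.65 and 3.06 CPM in WT CD8 cells. The groups were far apart and both narrow, and the log2 difference was 2.77 with a 95% interval of 1.79 to 3.75 and an adjusted p of 0.000873. Tox was at 90.3, 91.1 and 149 CPM in LN3 spleen, against 38.0, 28.5 and 46.1 CPM in WT CD8 cells. Again the groups did not overlap, with LN3 spleen 3 highest, and the log2 difference was 1.55 (interval 0.86 to 2.24, adjusted p = 0.00331).

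Vsir measured 74.9, 39.6 and 36.7 CPM in LN3 spleen, against 290.5, 308 and 339.9 CPM in WT CD8 cells. All WT CD8 libraries lay well above all LN3 spleen libraries, and the log2 difference was −2.64 (interval −3.70 to −1.58, adjusted p = 0.00187). Cd274 measured 18.2, 13.0 and 6.89 CPM in LN3 spleen, against 46.0, 49.6 and 36.4 CPM in WT CD8 cells. The ligand was thus lower in every LN3 spleen library, in the same samples in which its receptor Pdcd1 was higher, with a log2 difference of −1.80 (interval −2.53 to −1.06, adjusted p = 0.00205). Exons of Cd274 and Tox overlap in part those of the antisense genes AC119228.1 and Gm11802. Whether strand was used in counting is not given, so reads from the shared stretches may not have been told apart.

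Btla was also lower in every LN3 spleen library, at 55.1, 35.2 and 23.2 CPM against 89.3, 107.6 and 86.0 CPM in WT CD8 cells. Its log2 difference of −1.32 missed the threshold (adjusted p = 0.0712). It passed without WT thymocyte 3 (0.0098), when the 3 libraries with the strongest GC trend were left out (0.00368), with the compared groups alone (0.0146), and when scaled by library totals (0.0385) or by upper-quartile factors (0.0377). Ctla4 was at 17.7, 15.7 and 3.13 CPM in LN3 spleen, against 7.76, 2.82 and 2.52 CPM in WT CD8 cells. LN3 spleen 3 lay among the WT values, and the difference of 1.49 (adjusted p = 0.085) passed without LN3 spleen 3 (0.0251) or without WT CD8 1 (0.0403).

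For Havcr2, whose product is TIM-3, levels were 2.88, 2.92 and 0.85 CPM in LN3 spleen, against 8.09, 10.6 and 1.99 CPM in WT CD8 cells. The groups overlapped and the difference of −1.63 did not pass (adjusted p = 0.118). Lag3, Tigit and Icos overlapped between the groups, with intervals of −0.89 to 1.44, −1.29 to 0.91 and −0.86 to 0.96. The median over the 10 genes was −0.07, beside −0.11 over all genes tested.

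Comparison of the WT groups showed how these genes differ between normal spleen CD8 cells and thymocytes. Pdcd1 and Tox were lower in WT CD8 cells, and Btla, Vsir and Cd274 were higher. Those 5 of 10 genes compare with 15.7% of all genes tested, and groups did not overlap for 6 of 10, against 36.5%. Pdcd1 averaged 3.97 ± 0.818 CPM in WT CD8 cells and 23.9 ± 11.4 CPM in WT thymocytes (SD, n = 3 each), a log2 difference of −2.59 (adjusted p = 0.00218). Tox averaged 37.5 ± 8.81 CPM in WT CD8 cells and 119 ± 22.3 CPM in WT thymocytes (−1.66, adjusted p = 0.00402).

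Btla averaged 94.3 ± 11.6 CPM in WT CD8 cells and 18 ± 12.2 CPM in WT thymocytes (SD, n = 3 each), with the WT thymocyte 3 library lowest at 4.47 CPM. Its log2 difference was 2.38 (adjusted p = 0.0103). Vsir averaged 313 ± 25 CPM in WT CD8 cells and 105 ± 50.3 CPM in WT thymocytes (1.58, adjusted p = 0.0387). Cd274 averaged 44.0 ± 6.85 CPM in WT CD8 cells and 17.8 ± 3.71 CPM in WT thymocytes (1.31, adjusted p = 0.0189). The Pdcd1, Tox and Btla calls held in all 23 alternatives. Vsir lost its call without WT thymocyte 1 (adjusted p = 0.14), WT thymocyte 2 (0.128), LN3 spleen 2 (0.0518) or any WT CD8 library (0.084 to 0.089), and Cd274 without WT thymocyte 2 (0.0525), WT thymocyte 3 (0.0549), WT CD8 1 (0.0683) or WT CD8 2 (0.0697).

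Havcr2 was higher in each WT CD8 library than in any WT thymocyte library, with the lowest WT CD8 library at 1.99 CPM and the highest WT thymocyte library at 1.72 CPM. That difference of 2.21 did not pass edgeR's test (adjusted p = 0.0783) and did under DESeq2 (0.0246). Ctla4, Lag3, Tigit and Icos overlapped between the WT groups. The spleen and WT comparisons share the 3 WT CD8 libraries, so their values for Pdcd1, Tox, Vsir and Cd274 are not independent. Over the 10 genes the median difference was 0.47, beside 0.00 over all genes.

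LN3 spleen and LN3 thymus were compared to see whether leukaemia cells of the 2 organs differed. With edgeR, 0 of the 10 genes were called, beside 0.723% of all genes tested. DESeq2 called 1 of the 10 and limma 0, beside 647 and 186 calls over all genes. At an unadjusted p under 0.05 there were 3 (Ctla4, Tigit and Btla). The share of all genes at that level was not counted, so 3 is not read as an excess. Groups did not overlap for 3, against 11.5% of all genes. Ctla4 was at 17.7, 15.7 and 3.13 CPM in LN3 spleen, below the 19.2, 41.3 and 62.4 CPM of LN3 thymus (−1.75, interval −3.10 to −0.41, adjusted p = 0.337). Tigit was at 2.01, 4.92 and 1.99 CPM in LN3 spleen, against 1.13, 0.58 and 0.99 CPM in LN3 thymus, and is the gene that DESeq2 called (adjusted p = 0.0351, against 0.232 in edgeR's test).

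Btla likewise lay higher in each LN3 spleen library than in any LN3 thymus library, at 23.2 to 55.1 CPM against 8.99 to 18.9 CPM (1.43, adjusted p = 0.37). For Pdcd1 and Tox the interval of the difference ran from −0.67 to 1.15 and from −0.39 to 0.96. The median difference was 0.31 over the 10 genes and −0.05 over all genes.

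LN3 spleen was also set against WT thymocytes, the less mature normal cells. None of the 10 genes was called by edgeR, against 19.8% of all genes tested, and DESeq2 and limma also called 0. An unadjusted p under 0.05 was reached by 1, Vsir, at 36.7 to 74.9 CPM in LN3 spleen against 61.9 to 160.2 CPM in WT thymocytes (−1.06, adjusted p = 0.122). Here too the share of all genes at that level was not counted. No gene had groups that did not overlap, against 34.9% of all genes. The interval of the Pdcd1 difference ran from −0.73 to 1.10, that of Tox from −0.78 to 0.57 and that of Icos from −0.84 to 0.98. Across the 10 genes the median was 0.13, and across all genes −0.07.

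**Figure D2:**
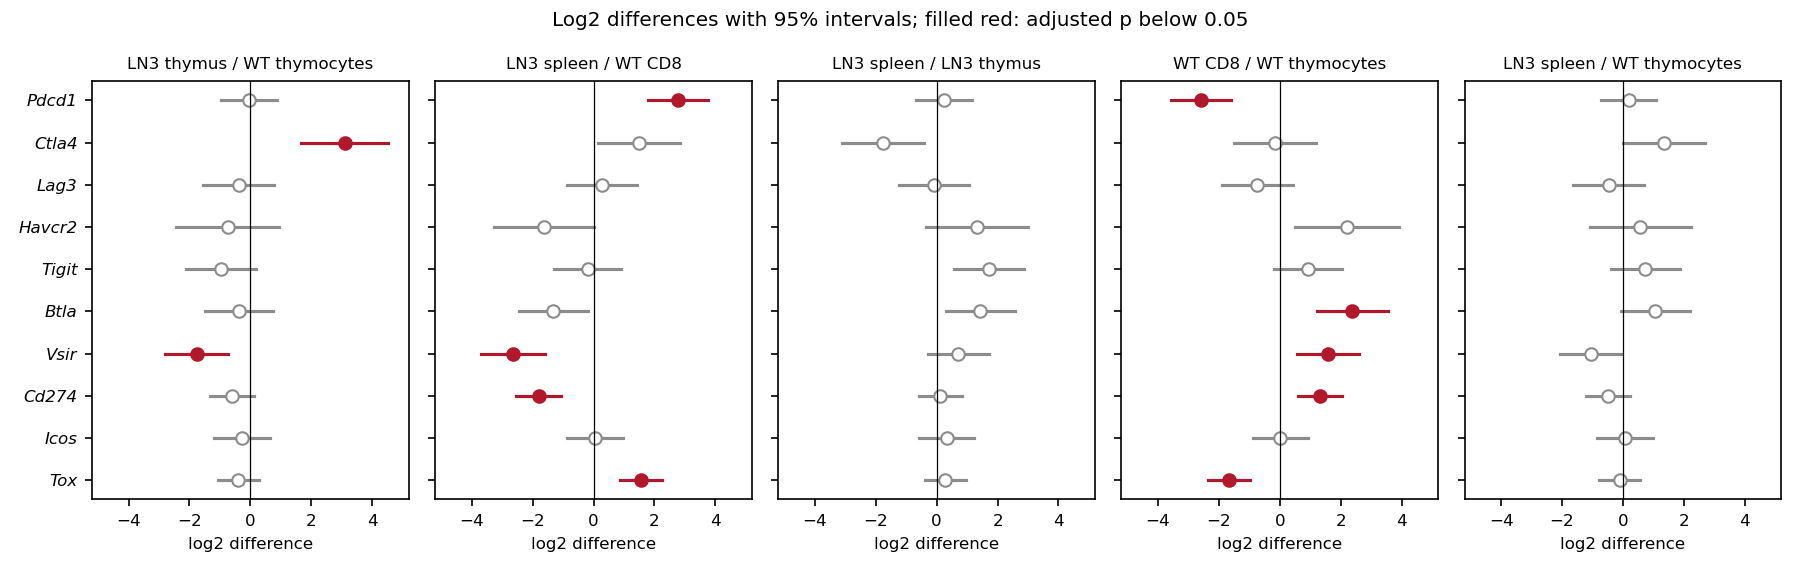
Log2 differences of the 10 genes in 5 comparisons, with 95% intervals as bars; filled red points passed edgeR's test at an adjusted p below 0.05. Red points number 2, 4, 0, 5 and 0 in the panels taken left to right, and Pdcd1 and Tox are red in opposite directions in the panels of LN3 spleen over WT CD8 cells and of WT CD8 cells over WT thymocytes.

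Whether the LN3 difference itself differed between organs was tested as the spleen difference minus the thymus difference. It was called for Pdcd1 and Tox, 2 of 10 genes beside 4.19% of all genes tested. For Pdcd1 the difference was 2.77 in the spleen and −0.05 in the thymus, and the gap was 2.83 (interval 1.5 to 4.15, adjusted p = 0.0209). For Tox it was 1.55 in the spleen and −0.39 in the thymus, with a gap of 1.95 (interval 0.98 to 2.91, adjusted p = 0.0276). The 2 organs have different kinds of control cells, and the WT groups differ in both genes, so the organ and the kind of control cannot be told apart. The Pdcd1 call was lost without LN3 thymus 3 (adjusted p = 0.0604), WT CD8 1 (0.0573) or WT CD8 3 (0.0615). In all, the Pdcd1 call held in 18 of 22 alternatives and the Tox call in 14. The Tox call was lost without LN3 thymus 1 (0.0645), LN3 thymus 3 (0.0791), WT thymocyte 1 (0.0562), LN3 spleen 3 (0.0727), WT CD8 1 (0.0777) or WT CD8 2 (0.0692), and both gaps stayed positive in all 22 alternatives.

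The order of the 4 groups differed from gene to gene. Mean Pdcd1 was 27.1 ± 2.98 CPM in LN3 spleen, 23.0 ± 14.3 CPM in LN3 thymus, 23.9 ± 11.4 CPM in WT thymocytes and 3.97 ± 0.818 CPM in WT CD8 cells (SD, n = 3 each), so that WT CD8 cells stood alone below 3 groups that overlapped. Tox had the same arrangement. Vsir ran the other way, with 30.9 ± 16.9 CPM in LN3 thymus, 50.4 ± 21.3 CPM in LN3 spleen, 105 ± 50.3 CPM in WT thymocytes and 313 ± 25 CPM in WT CD8 cells. LN3 spleen overlapped both LN3 thymus and WT thymocytes in Vsir, and WT CD8 cells stood alone above them. Icos was the flattest, at 31.3 ± 16.9 CPM in LN3 thymus, 39.4 ± 17.1 CPM in LN3 spleen, 37.6 ± 5.58 CPM in WT thymocytes and 38.1 ± 5.49 CPM in WT CD8 cells.

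Divided by the length of the longest annotated transcript, levels can be compared between genes. Tox was the highest of the 10 in LN3 thymus (22.8 CPM per kilobase), LN3 spleen (27.8) and WT thymocytes (30.0). Vsir was the highest in WT CD8 cells (64.6 CPM per kilobase), where Pdcd1 was the lowest (2.06). Havcr2 was the lowest in the other groups, at 0.317 CPM per kilobase in LN3 thymus, 0.815 in LN3 spleen and 0.547 in WT thymocytes. Ctla4 ranked 2 of 10 in LN3 thymus, at 21.2 CPM per kilobase, and 8 of 10 in WT thymocytes, at 2.48.

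Regulatory T cells carry much CTLA-4 and are marked by Foxp3. Foxp3 measured 2.18, 1.24 and 1.69 CPM in LN3 thymus, against 5.88, 5.15 and 9.72 CPM in WT thymocytes, so it was lower where Ctla4 was higher (log2 difference −2.01, adjusted p = 0.0563). The 10 markers of regulatory T cells summed to 657 to 845 CPM in LN3 thymus, against 221 to 306 CPM in WT thymocytes, where Il10 was at 0. Of those 10, 3 rose and 0 fell in LN3 thymus, and 5 rose and 0 fell in LN3 spleen, where 6.06% and 17.9% of all genes were called higher. Their median log2 difference was −0.17 in the thymus and 1.25 in the spleen. Il2ra and Ikzf2 had the highest levels of the list, at means of 281 and 300 CPM in LN3 thymus, where Ikzf2 was not called (adjusted p = 0.124 in edgeR's test). In the spleen groups Foxp3 measured 6.28, 5.96 and 1.37 CPM in LN3 spleen, against 14.7, 5.54 and 4.64 CPM in WT CD8 cells, and the libraries low in Foxp3 within each group were also low in Ctla4. The part of regulatory T cells in the Ctla4 values was not tested.

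TIM-3 and VISTA are also made by myeloid cells. The 14 myeloid markers summed to 61.8, 206 and 371 CPM in LN3 thymus, against 157, 108 and 262 CPM in WT thymocytes. They summed to 1860, 370 and 498 CPM in LN3 spleen, against 1720, 3870 and 511 CPM in WT CD8 cells, with none of the 14 at 0 throughout a group. Havcr2 was highest in the WT CD8 libraries richest in these markers and lowest in LN3 thymus 1, which had the least of them. It followed the order of the myeloid sum within LN3 thymus and within WT CD8 cells, but not within LN3 spleen or WT thymocytes. LN3 spleen 1 had a larger sum than WT CD8 1, with 2.88 CPM of Havcr2 against 8.09 CPM. Vsir had the same order as the myeloid sum within LN3 thymus and within WT thymocytes, and was highest in LN3 spleen 1, the LN3 spleen library with the most of these markers. In WT CD8 cells it was highest, at 339.9 CPM, in library 3, which had the least. In the thymus 0 of the 14 were called by edgeR, DESeq2 or limma, with 0 at an unadjusted p under 0.05. In LN3 spleen 0 rose and 2 fell, where 17.9% and 13.0% of all genes were called higher and lower. The part of these markers in the Havcr2 and Vsir values was not tested.

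BTLA is abundant on B cells. The 10 B-cell markers summed to 472, 366 and 293 CPM in LN3 thymus and to 438, 352 and 603 CPM in WT thymocytes. In the spleen groups the sums were 2180, 525 and 292 CPM in LN3 spleen, against 1120, 1450 and 504 CPM in WT CD8 cells. Btla had the same order as the B-cell sum within LN3 spleen and within WT CD8 cells, where library 3 was lowest in both, at 86.0 CPM of Btla. It ran against the sum within WT thymocytes, where library 3 had the highest sum and the lowest Btla. LN3 thymus 1 also had the highest sum and the lowest Btla of its group, at 8.99 CPM. Of these 10 markers 0 rose and 1 fell in LN3 thymus, where 6.06% and 5.21% of all genes were called higher and lower. In the spleen 0 were called by edgeR, DESeq2 or limma, with 0 at an unadjusted p under 0.05. EdgeR called 30.9% of all genes there. The part of these markers in the Btla values was not tested.

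Markers of other cells were counted too. Beside them stand the shares of all genes called, 6.06% higher and 5.21% lower in LN3 thymus. In LN3 spleen these shares were 17.9% higher and 13.0% lower. Counts of 1 or 2 calls in such short lists are not read as a shift of that cell type. Cd8a averaged 177.3 ± 50.4 CPM in LN3 spleen and 815 ± 200 CPM in WT CD8 cells, and 296 ± 152 CPM in LN3 thymus and 1845 ± 679 CPM in WT thymocytes (SD, n = 3 each; adjusted p = 0.00192 and 0.00181). In LN3 thymus, 0 rose and 3 fell of 3 CD4 T-cell, 0 and 3 of 6 CD8 T-cell and 0 and 5 of 8 double-positive thymocyte markers. In LN3 spleen, 0 rose and 2 fell of 3 CD4 T-cell markers, 0 and 5 of 6 CD8 T-cell markers, and 5 and 1 of 8 double-positive thymocyte markers. The 7 NK-cell markers summed to 14.2 to 67.1 CPM in LN3 spleen, against 222 to 565 CPM in WT CD8 cells, where 0 rose and 5 fell, and the 8 erythroid markers to 1920 to 6480 CPM against 39.6 to 701 CPM, where 4 rose and 0 fell. Of 12 dendritic-cell markers, 0 rose and 2 fell in LN3 spleen, and in LN3 thymus edgeR called 0 (2 at an unadjusted p under 0.05), DESeq2 1 and limma 0. Of 9 T-cell markers, 2 rose and 0 fell in LN3 spleen, and in LN3 thymus edgeR, DESeq2 and limma called 0, with 3 at an unadjusted p under 0.05. The share of all genes at that unadjusted level was not counted. NK-cell markers had 0 up and 1 down of 7 in LN3 thymus and erythroid markers 0 up and 1 down of 8, and of 7 stromal markers tested 1 rose and 0 fell in LN3 spleen and 1 rose and 1 fell in LN3 thymus.

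**Figure D3:**
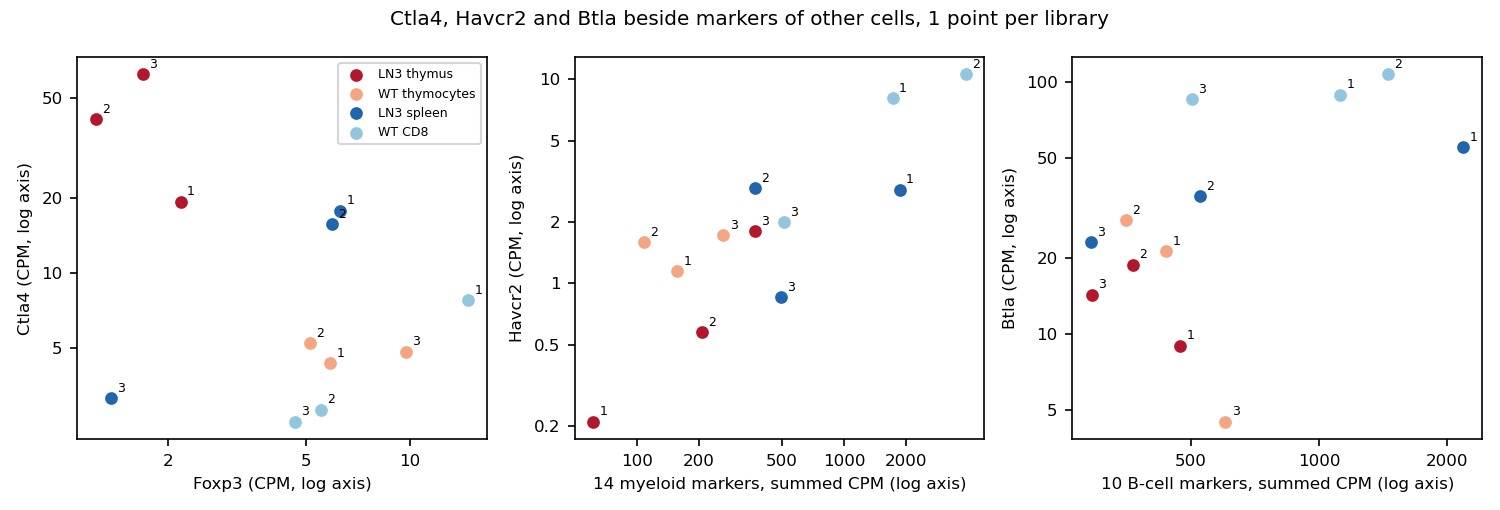
Ctla4 against Foxp3, Havcr2 against the sum of 14 myeloid markers and Btla against the sum of 10 B-cell markers, in CPM on log axes, 1 numbered point per library and colours for groups. The LN3 thymus libraries lie at 2.18 CPM of Foxp3 or less and at 19.2 CPM of Ctla4 or more.

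Related genes were counted in 5 lists, against which stand the shares of all genes called, 6.06% higher and 5.21% lower in LN3 thymus, and 17.9% higher and 13.0% lower in LN3 spleen. Of all calls, 53.8% were higher in LN3 thymus, against 38.2% with library totals and 41.2% with upper-quartile factors as the scaling. In LN3 spleen 58.0% were higher, against 40.0% and 41.7%.

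The ligands of the checkpoint receptors were examined as a list of 18 tested genes, of which 0 rose and 3 fell in LN3 thymus and 3 rose and 3 fell in LN3 spleen. The median log2 difference was −0.07 in the thymus and −0.63 in the spleen. Pvr, the CD155 ligand shared by TIGIT and CD226, averaged 19.2 ± 9.12 CPM in LN3 thymus and 116 ± 45.3 CPM in WT thymocytes (SD, n = 3 each), a log2 difference of −2.59 (adjusted p = 0.00212). Cd48, the ligand of the receptor CD244, averaged 5.32 ± 2.04 CPM in LN3 thymus and 23.9 ± 6.47 CPM in WT thymocytes, and 15 ± 2.2 CPM in LN3 spleen and 102 ± 9.41 CPM in WT CD8 cells. It fell in both organs (−2.16 and −2.77, adjusted p = 0.000918 and 7.82e-05). Hmgb1, a chromatin protein that binds TIM-3 when released, averaged 806 ± 283 CPM in LN3 spleen and 161 ± 23.8 CPM in WT CD8 cells (2.33, adjusted p = 0.000194).

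Among 23 other co-stimulatory and inhibitory receptors, 1 rose and 5 fell in LN3 thymus, and 0 rose and 8 fell in LN3 spleen. Medians were −0.85 in the thymus and −1.13 in the spleen. Slamf1, a receptor that binds itself on neighbouring cells, averaged 7.96 ± 2.57 CPM in LN3 thymus and 53.6 ± 13.7 CPM in WT thymocytes (−2.75, adjusted p = 0.000961). Pvrig, an inhibitory receptor for nectin, had 1 to 3 counts per LN3 thymus library, 5 in all against 16 in WT thymocytes, a ratio of 5.35 in favour of WT thymocytes (95% counting interval 1.87 to 18.7). Cd226, the activating receptor that shares CD155 with TIGIT, averaged 4.73 ± 0.911 CPM in LN3 spleen and 86.0 ± 22.8 CPM in WT CD8 cells (−4.19, adjusted p = 0.000281).

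Nt5e, the CD73 enzyme that makes adenosine, averaged 4.89 ± 1.62 CPM in LN3 spleen and 51.5 ± 16.5 CPM in WT CD8 cells (−3.39, adjusted p = 9.57e-05). Cd28, the co-stimulatory receptor that competes with CTLA-4, did not pass in either organ (0.28 in the thymus and 0.87 in the spleen, adjusted p = 0.716 and 0.102).

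Of 21 transcription factors linked to exhaustion, other than Tox, 2 rose and 5 fell in LN3 thymus, and 4 rose and 7 fell in LN3 spleen, with medians of −0.30 and −0.70. The Tox relative Tox2 averaged 29.5 ± 6.97 CPM in LN3 thymus and 6.29 ± 1.24 CPM in WT thymocytes (2.23, adjusted p = 0.00529). It averaged 60.8 ± 16.5 CPM in LN3 spleen and 0.86 ± 0.636 CPM in WT CD8 cells (6.21, adjusted p = 8.32e-06). Tox3, another relative, had no count in any LN3 library and was at least 31.9-fold lower in LN3 thymus, from a floor of 3 counts per library, than in WT thymocytes at 4.88 ± 0.669 CPM.

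Nr4a2, a nuclear receptor induced by T-cell receptor signals, averaged 0.336 ± 0.0871 CPM in LN3 thymus and 2.86 ± 0.72 CPM in WT thymocytes (−3.03, adjusted p = 0.00281). Eomes, a factor of effector and memory CD8 cells that is also among the CD8 T-cell markers, averaged 5.05 ± 1.97 CPM in LN3 spleen and 99.2 ± 10.4 CPM in WT CD8 cells (−4.28, adjusted p = 6.5e-05).

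The signalling proteins downstream of checkpoint receptors formed a list of 24, of which 1 rose and 1 fell in LN3 thymus and 2 rose and 3 fell in LN3 spleen. Medians were −0.23 and 0.03. Cblb, a ubiquitin ligase that restrains T-cell receptor signalling, averaged 165 ± 22.2 CPM in LN3 thymus and 61.2 ± 1.32 CPM in WT thymocytes (1.43, adjusted p = 0.00131). The phosphatase gene Inpp5d averaged 66.6 ± 45.5 CPM in LN3 thymus and 179 ± 57.6 CPM in WT thymocytes (−1.43, adjusted p = 0.0341). Pik3cd, a catalytic subunit of phosphoinositide kinase, averaged 199 ± 56.2 CPM in LN3 spleen and 806 ± 109 CPM in WT CD8 cells (−2.02, adjusted p = 0.000637). Sh2d1a, the SAP adaptor of SLAM-family receptors, averaged 72.2 ± 18.7 CPM in LN3 spleen and 23.8 ± 3.72 CPM in WT CD8 cells (1.6, adjusted p = 0.000471).

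Genes that mark recent signalling through the T-cell receptor numbered 13, with 1 up and 4 down in LN3 thymus and 3 up and 5 down in LN3 spleen, and medians of −0.62 and −0.48. Egr2, an early factor, averaged 3.41 ± 2.65 CPM in LN3 thymus and 30.2 ± 11.5 CPM in WT thymocytes (−3.17, adjusted p = 0.00387). Cd69, an early surface marker, averaged 6.16 ± 1.35 CPM in LN3 thymus and 38.6 ± 21.1 CPM in WT thymocytes, and 10.3 ± 3.86 CPM in LN3 spleen and 70.1 ± 24.5 CPM in WT CD8 cells. It fell in both organs (−2.65 and −2.78, adjusted p = 0.00402 and 0.00123). Il2ra, the interleukin receptor chain CD25 that is also among the regulatory T-cell markers, averaged 145 ± 179 CPM in LN3 spleen and 9.55 ± 4.03 CPM in WT CD8 cells, with LN3 spleen libraries running between 41.2 and 352 CPM (3.93, adjusted p = 0.00264).

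**Figure D4:**
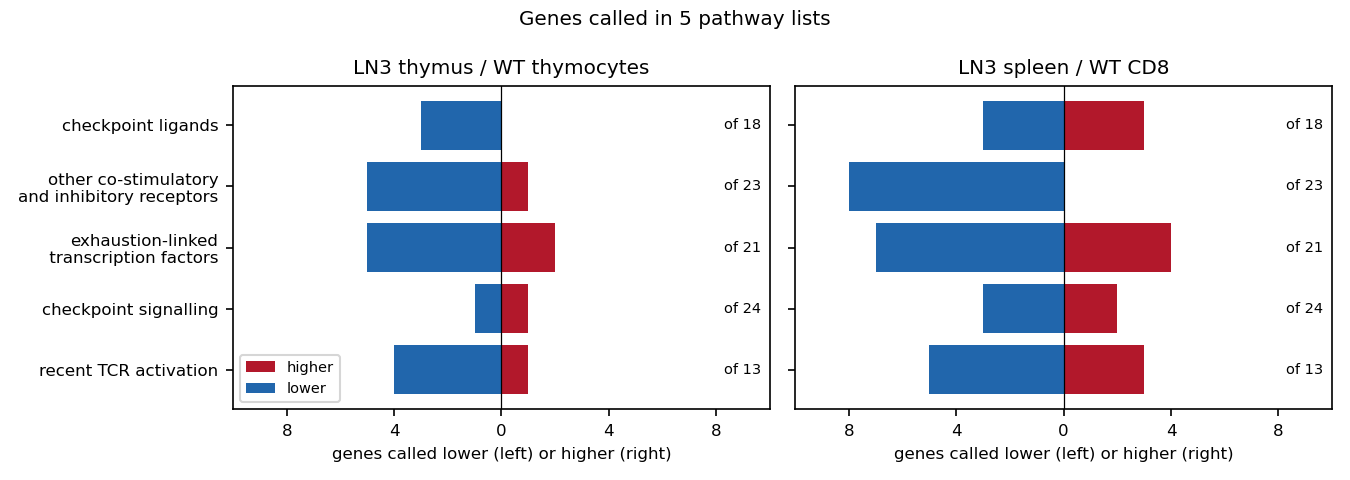
Numbers of genes called lower (bars to the left) and higher (bars to the right) in 5 lists, with the number tested at the right of each row. The left panel shows LN3 thymus over WT thymocytes and the right panel LN3 spleen over WT CD8 cells, where 0 of 23 other receptors were higher and 8 were lower.

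The numbers called in the lists moved with the scaling. Under library totals the other receptors had 1 up and 9 down in LN3 thymus and 0 up and 10 down in LN3 spleen, and the signalling list had 1 up and 5 down in LN3 thymus and 2 up and 7 down in LN3 spleen. With upper-quartile factors the signalling list had 1 up and 3 down in LN3 thymus and 2 up and 7 down in LN3 spleen, and the other receptors 1 up and 7 down and 0 up and 9 down. The exhaustion-linked factors had 2 up and 9 down in LN3 spleen under library totals and 2 up and 10 down with upper-quartile factors. Recent T-cell receptor signalling had 0 up and 6 down in LN3 thymus under library totals, and 0 up and 4 down without WT thymocyte 3. With the 3 libraries of strongest GC trend left out, LN3 spleen had 6 up and 3 down in the signalling list and 3 up and 5 down among ligands.

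The genes whose pattern over the 12 libraries lay nearest to each of 9 of the 10 were found by the root mean squared difference of centred log2 CPM. Tox lay nearest to Tnk2 (0.251), Traf4 (0.252) and Amz2 (0.261), and Cd274 to Epm2a (0.209), Gm44423 (0.262) and Ctso (0.264). For Pdcd1 they were Gm38037 (0.279), 2810408A11Rik (0.357) and Ada (0.358), and for Vsir Tmsb4x (0.32), Cyp2s1 (0.347) and Clec2d (0.35). The remaining nearest genes were Zfp773, D130017N08Rik and Phospho2 for Icos, Gm15232, Pgap1 and B3gnt5 for Btla, Cds1, Grk3 and Hip1 for Havcr2, Gm29264, A830035O19Rik and Car9 for Lag3, and BC051142, Eaf2 and Gpd1 for Tigit. None of the 10 was among the nearest of these 9.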

How the data were processed

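The data are poly(A) RNA sequencing of 12 mouse samples, 3 in each of 4 groups. The deposited table holds estimated counts per gene, which the authors made with kallisto 0.46.1 on GRCm38, per the submitters' processing notes, where FastQC and DESeq2 also appear. Neither the annotation release nor the strand setting is stated (not given in the sources used here). All 652212 deposited values were already whole, and rounding changed none. The authors also deposited log2-scale values after variance stabilization, used only in an alternative with limma 3.58.1.

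The quasi-likelihood test of edgeR 4.0.16 (R 4.3.3) was fitted with robust dispersions to the 20897 genes kept by filterByExpr, with TMM scaling and a mean for each of the 4 groups, which left 8 residual degrees of freedom, and p-values were adjusted by Benjamini-Hochberg over all of them. Of 54351 genes, 16997 had no count. The common biological coefficient of variation was 0.4411. The fit was tested on simulated data. Totals ran from 12694571 to 42483898 counts. Counting intervals and the floor of 3 counts per library cover counting error only.

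Alternatives were RLE factors, library totals and upper-quartile factors as scaling, DESeq2 1.42.0, limma, other filters on low counts, the compared groups alone, each library left out, and blocks by replicate number. Added after seeing the data were fits without the 3 libraries with the strongest GC trend, a split of the thymus libraries at 3% by the share of CT010467.1, and list counts under other scalings.

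Named genes were the 10 chosen, the 2 called genes of each pathway list with the largest log2 difference in the thymus and in the spleen comparison, the 2 markers of each other cell type with the highest mean CPM, the 3 nearest genes of each of the 10 (those of Ctla4 are not reported here), and Foxp3 and Cd28. Only those needed beside a result are given with values. The members and lists were chosen with earlier results of these data known. Coordinates are from GENCODE on GRCm38 and promoter sequence from RefSeq on GRCm38.p6.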

Additional observations from a re-analysis of the deposited data

Results flagged for a closer look

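The LN3 difference of Pdcd1 was larger in the spleen than in the thymus, by 2.83 on the log2 scale (2.77 and −0.05). For Tox the gap was 1.95 (1.55 and −0.39). Both passed edgeR's test of the difference itself. The WT cells were enriched CD8 cells in the spleen and unsorted thymocytes in the thymus, so the organ and the kind of WT cell cannot be told apart.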

How the results depend on the processing

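The 4 calls in LN3 spleen against WT CD8 cells held in all 22 alternatives, and those of Pdcd1, Tox and Btla in WT CD8 cells against WT thymocytes in all 23. In LN3 thymus against WT thymocytes the number of the 10 genes called was 1 with the compared groups alone, 0 without the 3 libraries with the strongest GC trend and 1 to 2 when each library was left out. Leaving out libraries gave 4 to 5 in the spleen, 3 to 5 in the WT comparison and 0 to 2 for the difference between organs. The calls over all genes moved as well: with each library left out they ran from 1203 to 2737 in the thymus (2354 with all), from 3999 to 8582 in the spleen (6453), from 0 to 255 between LN3 spleen and LN3 thymus (151), from 1871 to 3284 in the WT comparison (3287), from 1930 to 5818 for LN3 spleen against WT thymocytes (4146) and from 463 to 880 for the difference between organs (875). The compared groups alone gave 1479 in the thymus and 2406 for LN3 spleen against WT thymocytes. For LN3 spleen against LN3 thymus DESeq2 gave 647, library totals 43 and the fit without the 3 GC libraries 1, and DESeq2 gave 1728 for the difference between organs. Of the 10 genes, DESeq2 called 1 (Tigit) for LN3 spleen against LN3 thymus. Library totals gave 1 of the 10 (Vsir, adjusted p = 0.0255) for LN3 spleen against WT thymocytes. The cause was not tested in these cases. Omissions leave fewer samples, and without WT thymocyte 3 the calls over all genes were above those with all libraries in 3 comparisons. They were 2737 in the thymus, 8582 in the spleen and 5818 for LN3 spleen against WT thymocytes. All results that turned direction were uncalled. In the thymus comparison these were Lag3 at 0.255 without the GC libraries and 0.231 where CT010467.1 was under 3%, and Btla at 1.93 and Icos at 0.0855 where it was 3% or more. In the spleen they were Lag3 at −0.0991 with library totals and −0.015 with upper-quartile factors, Tigit at 0.0907 without the GC libraries, and Icos at −0.334 and −0.288 with those factors and −0.221 with limma. For LN3 spleen against LN3 thymus Cd274 was at −0.0422 with library totals and −0.213 without the GC libraries. For the WT groups Icos was at −0.00539 with RLE factors and −0.00845 with DESeq2. For LN3 spleen against WT thymocytes Pdcd1 was at −0.0729 with library totals and −0.0295 with upper-quartile factors, Icos at −0.268, −0.198 and, with limma, −0.0598, and, without the GC libraries, Lag3 at 0.0718 and Tox at 0.287. With single libraries left out, the ranges that crossed 0 were Pdcd1 −0.68 to 0.421, Lag3 −0.686 to 0.0278, Btla −0.813 to 0.127 and Icos −0.671 to 0.127 in the thymus, and Lag3 −0.211 to 0.755, Tigit −0.726 to 0.0891 and Icos −0.201 to 0.38 in the spleen. Likewise they were Pdcd1 −0.0323 to 0.875, Lag3 −0.621 to 0.266, Cd274 −0.216 to 0.42 and Icos −0.0277 to 0.743 between LN3 spleen and LN3 thymus, and Ctla4 −0.846 to 0.135 and Icos −0.132 to 0.0983 between the WT groups. The others were Pdcd1 −0.0229 to 0.665, Icos −0.184 to 0.398 and Tox −0.386 to 0.0576 between LN3 spleen and WT thymocytes, and Havcr2 −1.39 to 0.351 and Icos −0.082 to 0.726 for the difference between organs. Library totals and upper-quartile factors shifted the median over genes by −0.192 and −0.163 in the thymus and by −0.401 and −0.328 in the spleen. Under every scaling tried, Ctla4 and Vsir in the thymus and Pdcd1, Tox, Vsir and Cd274 in the spleen kept their direction and call. Depth limits Havcr2 and Tigit, which had as few as 5 and 7 counts in a library of LN3 thymus.

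The labels do not say whether replicate numbers pair the samples. Deviations of same-numbered LN3 thymus and LN3 spleen libraries correlated at −0.15, −0.528 and −0.0412, and those of WT libraries at 0.044, 0.000226 and −0.135. LN3 libraries numbered 2 and WT libraries numbered 3 differed in Xist, so these numbers did not pair. For the other numbers Xist was high in both libraries or low in both, and pairing was not settled. With a replicate block, 1 gene was called in the thymus, 4 in the spleen and 1 for the difference between organs, and with the block by genotype 3 in the WT comparison and 0 for the difference between organs. Over all genes the block gave 31 calls for LN3 spleen against LN3 thymus and 532 for the difference between organs, and the block by genotype 38 and 245, and 1712 in the WT comparison. Under the block the adjusted p was 0.0627 for Vsir in the thymus, 0.0618 for Vsir in the WT comparison and 0.0533 for the Tox difference between organs. Under the block by genotype it was 0.107 for Vsir and 0.0617 for Cd274 in the WT comparison, and 0.0835 for Pdcd1 and 0.0765 for Tox in the difference between organs. Icos turned to −0.0778 in the spleen and −0.0402 against WT thymocytes under the block.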

Other observations

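In 3 of the 4 groups 1 library held the lowest value of most of the 10 genes, a pattern noticed in the data and not tested. How often these libraries were lowest over all genes tested was not counted, so the pattern is not shown to be particular to the 10 genes. In LN3 spleen, library 3 had the lowest value of 8 of the 10 genes, among them Ctla4 at 3.13 CPM and Lag3 at 4.84 CPM, and the highest of the other 2, Icos at 52.2 CPM and Tox at 149 CPM. WT CD8 3 was lowest of its group for 7 and highest for Vsir, Icos and Tox. In LN3 thymus, library 1 was lowest for 7, Tox at 63.9 CPM included. WT thymocytes had no such library, with 4, 3 and 3 of the lowest values in libraries 1 to 3.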
